A study of Mus musculus with 8 samples.

Results

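Cytosolic ribosomal protein genes were followed in mouse hepatic stellate cells. These cells store vitamin A in the healthy liver and become contractile, matrix-producing myofibroblasts upon activation. Members were taken by name from the deposited gene table: symbols made of Rpl or Rps and a number with at most one letter and digit after it, together with Rplp0, Rplp1, Rplp2 and Rpsa, leaving out pseudogene symbols. The rule gave 80 of 14162 genes, 47 of the large subunit (Rpl and Rplp) and 33 of the small subunit (Rps), with 4 paralogs among them, and used no measured value. All 80 reached 10 in at least 2 libraries, the limit for testing, as did 13150 genes in all. Rpl26, Rpl3l, Rpl10l, Rpl39l and Rack1 were not analysed here.

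Total RNA was sequenced in 8 libraries, 2 for each of 4 groups that the labels call activated_miR15a, activated_miRcontrol, activated and quiescent. The series was designed to look for likely targets of miR-15a, a small regulatory RNA. All groups are labelled as hepatic stellate cells. C57BL/6J mice and immunodeficient SCID mice are named, but not matched to libraries. How the cells were activated and how miR-15a or the control microRNA was delivered is not stated. Nor is it stated whether replicates are separate animals or cultures, so the p-values measure the spread between these libraries only, which may be technical.

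A ribosome is built from ribosomal RNA and about one copy of each ribosomal protein, so cells that grow need all of these mRNAs together. Their mRNAs begin with an oligopyrimidine tract (the TOP motif), through which the growth-sensing kinase mTORC1 controls their translation. Most of the proteins are needed for viability. A few also act outside the ribosome, and some have paralogs that are used in particular tissues.

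The miRNA of the study is shown first, because its seed decides which mRNAs it can pair with. Capitals mark the seed, bases 2 to 8 of the mature RNA (RefSeq, GRCm38.p6, chr14:61632075-61632096, minus strand).
mmu-miR-15a-5p: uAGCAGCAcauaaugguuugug

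The complement of this seed, TGCTGCT, was sought on the transcript strand of the longest 3′ UTR that GENCODE M21 annotates for each gene. It was present in 7 of 79 ribosomal protein genes (8.86%) with an annotated 3′ UTR and in 2987 of 12454 other genes of the table (24.0%). The median 3′ UTR was 173 bases long in the ribosomal protein genes and 1173 bases in the others. Rpl22, Rpl28, Rps15a, Rpl6, Rps24 and Rps7 were among them. The sites of the members called between miR-15a and control libraries (limma, adjusted p under 0.05) are shown, with the seed complement in capitals and the positions of the capitals in parentheses (GRCm38).
Rpl28 (chr7:4794998-4795004, plus strand): ctgggactttgTGCTGCTgcagtagaatt
Rps15a (chr7:118107947-118107953, minus strand): cctcattttggTGCTGCTcctgccttgac
Rps15a (chr7:118104702-118104708, minus strand): ttaagagcactTGCTGCTcctgagtggat
Rpl22 (chr4:152332555-152332561, plus strand): tttaactgggcTGCTGCTcctttgtatat
Rpl22 (chr4:152333252-152333258, plus strand): gatagggaagtTGCTGCTtcctaaactgt
Rpl22 (chr4:152333627-152333633, plus strand): gccacaagttcTGCTGCTgcgcctccgag
Of these, Rpl28 was lower and Rpl22 and Rps15a were higher with miR-15a than with the control microRNA, with values below, and the other 4 genes with a site were not called. Over all genes tested, 14.4% were called higher and 15.4% lower in that comparison. A match of letters in an annotated 3′ UTR is a description and not evidence of binding.

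The start of the gene was searched for the tract that gives these mRNAs their name. A run of at least 7 consecutive C or T was sought on the gene's strand within the last 15 bases before and the first 15 bases after each annotated start (RefSeq, GRCm38.p6). It was found in 34 of 70 starts of ribosomal protein genes (48.6%) and in 6095 of all 32851 starts in the table (18.6%). Starts were listed for 59 of the 80 genes, of which 33 had a run at one or more starts. The annotated start is not a measured one, so a run a few bases away from it is not seen. Starts of genes whose values are given below follow, each 30 bases long with the longest run in capitals; of genes with several starts one is shown.
Rps24 (chr14:24490663-24490692, plus strand): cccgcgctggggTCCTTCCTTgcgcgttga
Rps15a (chr7:118116133-118116162, minus strand): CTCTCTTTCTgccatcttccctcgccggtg
Rpl28 (chr7:4792950-4792979, plus strand): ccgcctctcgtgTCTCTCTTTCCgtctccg
Rps9 (chr7:3704026-3704055, plus strand): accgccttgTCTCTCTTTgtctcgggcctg
Rps2 (chr17:24720048-24720077, plus strand): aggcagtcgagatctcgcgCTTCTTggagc
Rpl22 (chr4:152325711-152325740, plus strand): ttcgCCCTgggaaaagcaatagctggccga
Rpl22l1 (chr3:28805493-28805522, plus strand): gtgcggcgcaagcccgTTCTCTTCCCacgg
On activation the median log2 fold change was 1.27 over the 33 genes with a run, of which 28 were called higher (84.8%), and 1.08 over the 26 without one, of which 22 were called higher (84.6%) and 2 lower. The shares called higher were thus nearly equal with and without a run, and over all genes tested 45.4% were called higher and 34.1% lower.

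The deposited values are whole numbers on a normalized scale that every library shares, with 910 distinct values in each library, totals between 10193036 and 10234768 and a ceiling of 125636 that no ribosomal protein gene reached. The sequencing depth cannot be read from such values, and no counting intervals are given. Neighbouring steps of the scale are 0.037 apart in log2 near 5000 and 0.10 near 10000, and highly expressed genes can be tied: 11 of the 80 were tied between both miR-15a libraries, 14 between both control microRNA libraries, 14 between both activated libraries and 3 between both quiescent libraries. For tied genes the SE may be too small. In bulk samples a change in the share of cells that make an mRNA and a change in the amount per cell cannot be told apart.

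Ribosomal protein genes summed to a larger share of the total deposited value in every activated group than in quiescent cells. These are shares of the normalized scale and not of sequenced reads. The 80 genes summed to 3.90% ± 0.054 of the library total with miR-15a, 3.32% ± 0.0087 with the control microRNA, 2.97% ± 0.077 in activated cells and 1.56% ± 0.070 in quiescent cells (SD, n = 2 each). The summed values lay between 395165 and 403005 with miR-15a, between 338256 and 339585 with the control microRNA, between 297478 and 308580 in activated cells and between 154193 and 164286 in quiescent cells, so no group overlapped another. The ratio of the mean sums was 1.90 for activated over quiescent cells, 1.18 for miR-15a over the control microRNA and 1.12 for the control microRNA over activated cells. Large-subunit genes summed to 2.18% with miR-15a, 1.89% with the control microRNA, 1.74% in activated cells and 0.828% in quiescent cells. Small-subunit genes summed to 1.73% with miR-15a, 1.44% with the control microRNA, 1.24% in activated cells and 0.728% in quiescent cells. The 77 mitochondrial ribosomal protein genes, which build the separate ribosome inside mitochondria, were also lowest in quiescent cells but did not follow the same order among the activated groups. They summed to 0.215% with miR-15a, 0.197% with the control microRNA, 0.218% in activated cells and 0.0991% in quiescent cells.

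**Figure D1:**
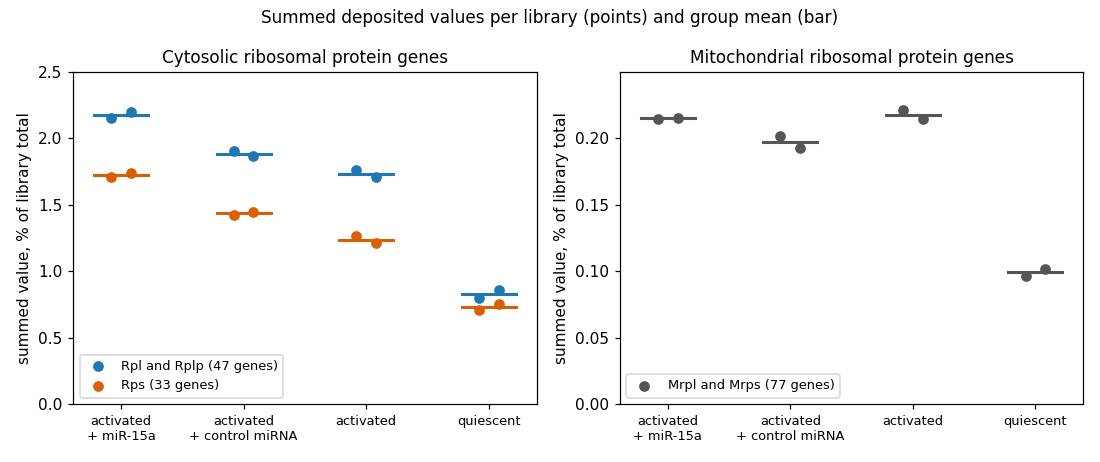
Summed deposited values of ribosomal protein genes as a percentage of the library total, with cytosolic genes by subunit in the left panel and mitochondrial genes in the right panel; points are libraries and bars are means of 2. Both cytosolic subunits are highest with miR-15a (2.18% and 1.73%) and lowest in quiescent cells (0.828% and 0.728%), while the mitochondrial genes stand at 0.215% with miR-15a and 0.218% in activated cells.

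By group mean, 59 of the 80 genes were highest with miR-15a, 15 with the control microRNA, 4 in activated cells and 2 in quiescent cells, and 71 were lowest in quiescent cells. The same order was not counted over all genes, so these counts cannot be set against a background. Levels between genes were compared per kb of annotated exon length. Rplp1 led in every group, at 55434 per kb with miR-15a, 39244.5 with the control microRNA, 41082 in activated cells and 23962 in quiescent cells. The median over the 80 genes was 1826 per kb with miR-15a, 1645 with the control microRNA, 1571 in activated cells and 523 in quiescent cells. Rplp1 is counted over a short annotated length of 499 bases, against a median of 1806. At the other end Rps27, Rpl34 and Rpl30 were close to the lower limit in every library, with deposited values of 18 to 26, 14 to 36 and 7 to 28. Their proteins belong to the core of the ribosome like those of the other members, and whether these rows reflect the amount of the mRNA was not tested.

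Many ribosomal protein genes have processed pseudogenes, copies of the mRNA in the genome that can share short reads with the gene. All windows of 80 bases, the read length in the labels, were compared with the other annotated GENCODE transcripts. Of 79 members with a protein-coding transcript, 77 shared at least one window with another annotated gene and the median gene shared 41.2% of its windows. Rps4l has no protein-coding transcript in that annotation and was left out here. Rps3 shared none. The 31 genes that shared at least 50% had a median level of 2447 and the other 48 a median of 3383, in deposited values averaged over 8 libraries. Of the genes at the lower limit, Rps27 shared 60.2% and Rpl30 70.4%, but Rpl34 only 4.51%. How reads shared between genes were counted is not given in the sources used here, so the levels of genes with shared sequence are uncertain, and their part in the results was not tested beyond the counts below.

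**Figure D2:**
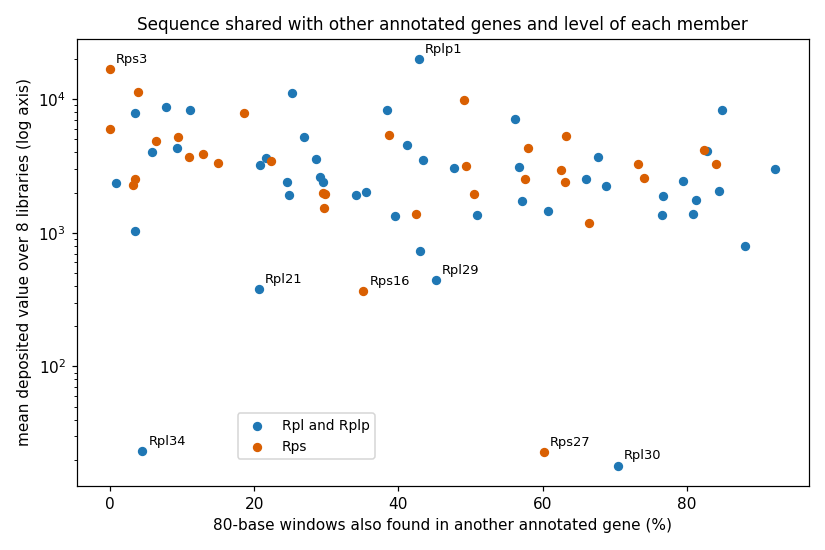
Percentage of 80-base windows that each ribosomal protein gene shares with another annotated gene (horizontal axis) and its mean deposited value over 8 libraries (vertical log axis), one point per gene for 79 genes. Levels run from 18 to 8303 in genes sharing at least 50% of windows and from 23 to 19925 in the others, with a Spearman rank correlation of -0.27. Rpl30, Rps27 and Rpl34 stand far below the rest, with 70.4%, 60.2% and 4.51% of windows shared.

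Activation was examined first, as activated minus quiescent cells. Of the 80 genes, 66 were called higher in activated cells (82.5%) and 4 lower (5.0%) by limma at a Benjamini-Hochberg adjusted p under 0.05, while over all genes tested 45.4% were called higher and 34.1% lower. The median log2 fold change of the members was 1.20, with 49 genes over 1 and a range of -1.23 to 2.93, against a median of 0.21 over all genes. By subunit, 40 of 47 large-subunit genes were called higher and 2 lower (median 1.27), and 26 of 33 small-subunit genes higher and 2 lower (median 1.0). Of the 77 mitochondrial ribosomal protein genes, 66 were called higher, with a median of 1.04. Among genes with a mean value of at least 1000, where 71 of the members lie, 62 members were called higher and 3 lower, and over all 1776 such genes 975 were called higher and 622 lower.

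The largest increases on activation were those of Rpl39, Rpl23a, Rps24 and Rpl17. Rpl39, which lines the tunnel through which the growing chain leaves the ribosome, was at 5343 in both activated libraries, against 728 and 670 in quiescent libraries, a log2 fold change of 2.93 ± 0.16 (SE, adjusted p = 1.56e-06). Rpl23a, at the tunnel exit, was at 2168 and 2224 in activated and 248 and 398 in quiescent libraries (2.79 ± 0.20, adjusted p = 7.42e-06). Rpl17, a core protein of the large subunit, was at 4447 and 3996 in activated and 731 and 682 in quiescent libraries (2.57 ± 0.07, adjusted p = 3.43e-08). In all 3 genes each activated library stood several fold above each quiescent one, but they were picked as the largest increases.

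Rps24 is a small-subunit protein needed to mature the small-subunit ribosomal RNA. Its values were 5027 in both activated libraries, against 738 and 816 in quiescent libraries (2.69 ± 0.06, adjusted p = 2.04e-08). Rps26, which lies at the exit of the mRNA channel and is mutated in Diamond-Blackfan anaemia in humans, was at 1824 and 1842 in activated and 435 and 394 in quiescent libraries (2.13 ± 0.08, adjusted p = 1.42e-07). Rps19, the protein most often mutated in that anaemia, was at 3604 and 3602 in activated and 1588 and 1634 in quiescent libraries (1.16 ± 0.09, adjusted p = 1.3e-05). Rps6, the classical substrate of the S6 kinases downstream of mTORC1, was at 3318 and 3204 in activated and 1602 and 1842 in quiescent libraries (0.92 ± 0.07, adjusted p = 1.27e-05). The increases thus differed in size between proteins that are present at one copy per ribosome.

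Rpl5 and Rpl11 travel together with the 5S ribosomal RNA and bind Mdm2, the ubiquitin ligase of p53. Rpl5 was at 3812 and 3602 in activated and 1002 and 960 in quiescent libraries (1.91 ± 0.09, adjusted p = 5.95e-07). Rpl11 was at 1590 and 1541 in activated and 786 and 765 in quiescent libraries (1.01 ± 0.05, adjusted p = 1.13e-06). Both partners were called higher. Rps27a, made as a fusion with ubiquitin, was at 1396 and 1050 in activated and 502 and 566 in quiescent libraries (1.18 ± 0.13, adjusted p = 7.82e-05).

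The stalk proteins, which recruit the elongation factors to the large subunit, had smaller differences than these. Rplp1 was at 20500 in both activated libraries, against 11352 and 12562 in quiescent libraries (0.78 ± 0.12, adjusted p = 0.000625). Rplp2 was at 3682 and 3317 in activated and 2224 and 2361 in quiescent libraries (0.61 ± 0.07, adjusted p = 0.000142). Rplp0, which anchors the other stalk proteins, was at 9198 and 8724 in activated and 7724 and 8724 in quiescent libraries, and these overlap (0.13 ± 0.07, adjusted p = 0.135). Without the quiescent replicate b the difference for Rplp0 was 0.21 and was called (adjusted p = 0.0154). Rpsa, a small-subunit protein also known as the laminin receptor precursor, was at 5029 and 4900 in activated and 2700 and 2758 in quiescent libraries (0.86 ± 0.06, adjusted p = 3.89e-06).

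Only 4 members were called lower in activated cells. Rps2, at the entry of the mRNA channel, was at 3512 and 1461 in activated and 5764 and 4899 in quiescent libraries (-1.23 ± 0.34, adjusted p = 0.0114). The activated libraries of Rps2 differed more than 2-fold from each other, and without the quiescent replicate a the difference was -1.11 with an adjusted p of 0.0715. Rps14, on the platform of the small subunit and deleted in human 5q- syndrome, was at 5343 in both activated libraries, against 11352 and 12562 in quiescent libraries (-1.16 ± 0.06, adjusted p = 1.19e-06). Rpl29, which mice can live without, was at 179 and 174 in activated and 306 and 352 in quiescent libraries (-0.88 ± 0.18, adjusted p = 0.00291). Rpl7l1, a paralog of Rpl7 that acts in ribosome assembly, was at 885 and 866 in activated and 1198 and 1268 in quiescent libraries (-0.49 ± 0.07, adjusted p = 0.000305). Rps2 shared 63.3% of its windows, with 47 other annotated genes, and Rpl29 shared 45.2%, with 36. Rps14 shared 18.6%, with 2 other genes, and Rpl7l1 shared 3.44%, with 29. The part of shared sequence in these 4 calls was not tested.

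The remaining 10 members were not called in this comparison. Rpl21 had the lowest fitted value among them, with 204 and 37 in activated and 195 and 198 in quiescent libraries (-1.10 ± 0.67, adjusted p = 0.163), and 1 of the activated libraries lay above both quiescent ones. Rpl13a, a protein that in human monocytes is released from the ribosome to silence inflammatory mRNAs, was at 6462 and 6000 in activated and 5764 and 6288 in quiescent libraries (0.05 ± 0.07, adjusted p = 0.53). Rps9 was at 4663 in both activated libraries, against 4663 and 4900 in quiescent libraries (-0.04 ± 0.05, adjusted p = 0.534). The groups overlap in both genes. The scale of the table bears on genes this close to no difference: with median-ratio scaling the median of all genes moved by -0.27 on the log2 scale, the calls over all genes were 4775 higher and 5414 lower, against 5968 higher and 4483 lower as deposited, and Rpl13a was called lower (-0.23, adjusted p = 0.0247). With that scaling 60 members were called higher and 7 lower. Such scaling shifts all genes of a library together, so it can hardly change the distance between members and all genes. The median of the members lay 0.98 above that of all genes with the scaling and 0.99 above it as deposited, which is therefore no test of the result.

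**Figure D3:**
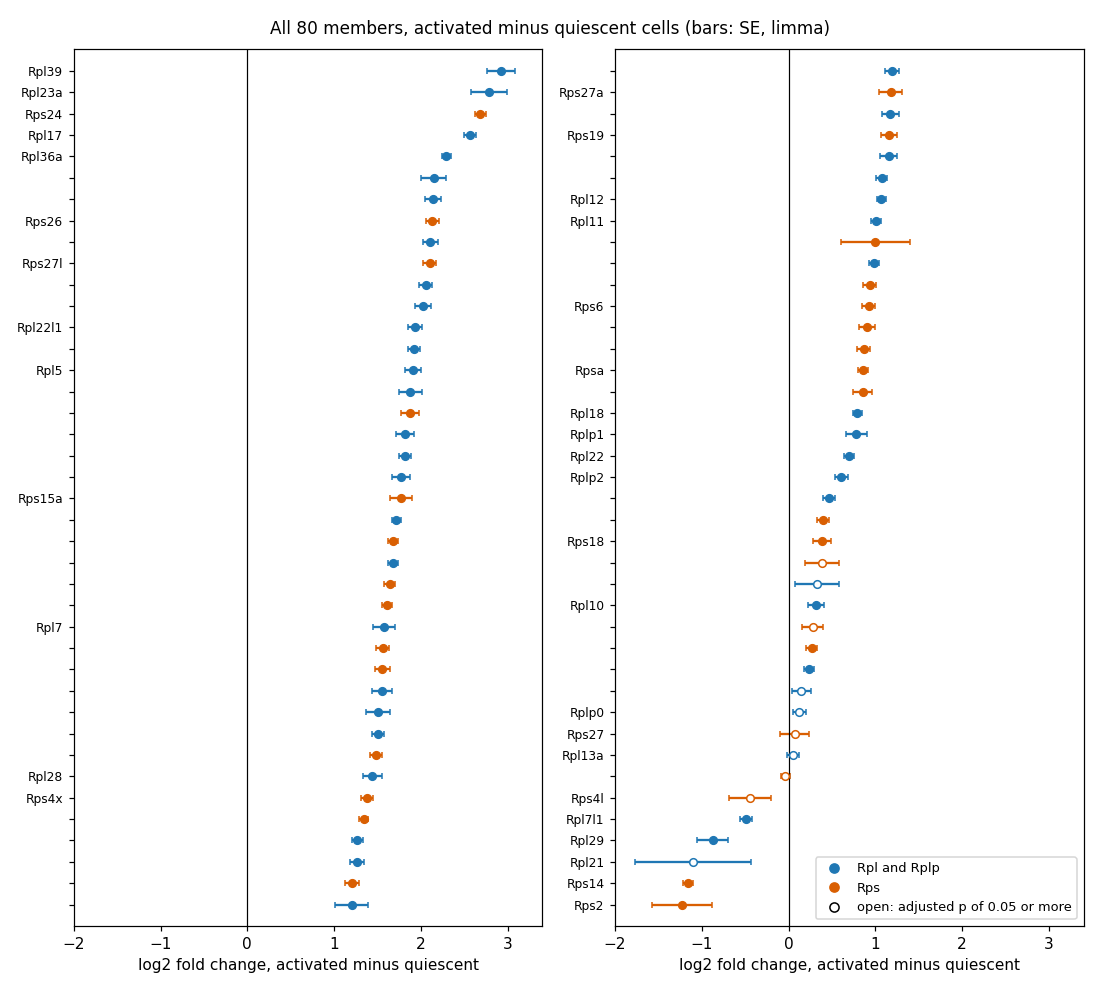
Log2 fold change of each of the 80 ribosomal protein genes, activated minus quiescent cells, on the log2(value + 5) scale; bars are SE from limma, colours give the subunit, open points were not called and names are given for the genes of the naming rule. Values run from 2.93 for Rpl39 to -1.23 for Rps2, with 66 genes called higher and 4 lower.

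The quiescent libraries also held transcripts of other liver cells, and these moved with the same comparison. Summed values of 20 endothelial markers were 1379 to 1598 in activated and 208607 to 278258 in quiescent libraries. The sums of 19 macrophage markers were 2156 to 2376 in activated and 151234 to 172613 in quiescent libraries, and those of 17 hepatocyte markers 443 to 565 in activated and 15344 to 18092 in quiescent libraries. All 20, all 19 and all 17 markers were called lower in activated cells. The 12 myofibroblast markers were all called higher, with sums of 643171 to 652321 in activated and 3926 to 4271 in quiescent libraries, while the 13 stellate cell markers summed to 13600 to 14350 in activated and 16234 to 16881 in quiescent libraries. No marker was at 0 in both libraries of a group. The part of these other cells in the ribosomal protein results was not tested.

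All 4 members on the X chromosome were called higher in activated cells, as were 45.4% of all genes. Besides Rpl39, they are Rpl36a at 2386 and 2361 in activated and 476 and 484 in quiescent libraries, Rps4x at 11355 in both activated and 4088 and 4665 in quiescent libraries, and Rpl10, a late-joining large-subunit protein, at 6822 and 7286 in activated and 5561 and 5764 in quiescent libraries. The log2 differences were 2.29 ± 0.05 for Rpl36a (adjusted p = 2.22e-08), 1.38 ± 0.07 for Rps4x (adjusted p = 9.2e-07) and 0.32 ± 0.09 for Rpl10 (adjusted p = 0.0125). The call for Rpl10 was lost without the activated replicate b (0.27, adjusted p = 0.0704) and without the quiescent replicate a (0.29, adjusted p = 0.0603). The groups also differed in sex-linked transcripts, whose part in the values of these 4 and of all other members was not tested. Xist, made from the inactive X chromosome, was at 169 and 21 in activated and 8724 in both quiescent libraries, and the Y-linked Ddx3y was at 2606 and 2570 in activated and 44 and 40 in quiescent libraries.

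The comparison with a control microRNA asks what miR-15a changed in activated cells. With miR-15a 23 of the 80 genes were called higher (28.8%) and 3 lower (3.75%) than with the control microRNA, while over all genes 14.4% were called higher and 15.4% lower. The median log2 fold change was 0.14 for the members and -0.07 for all genes. By subunit, 15 of 47 large-subunit genes were called higher and 2 lower, and 8 of 33 small-subunit genes higher and 1 lower. In 42 members both miR-15a libraries stood above both control libraries and in 7 both stood below, against 3637 and 5025 of 13150 genes. Of the mitochondrial ribosomal protein genes 9 of 77 were called higher and 3 lower, with a median of 0.11. The count of 23 fell to 15 without the miR-15a replicate a, to 14 without the miR-15a replicate b and to 15 without the control replicate b. With median-ratio scaling 29 members were called higher and 2 lower, and over all genes 2311 were called higher and 1584 lower, against 1897 higher and 2029 lower as deposited.

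Rps15a, a core small-subunit protein, stood apart from the other members here. Its values were 18666 and 24099 with miR-15a, 9821 and 11352 in control microRNA libraries, 10504 and 9821 in activated cells and 2991 and 2954 in quiescent cells. Both miR-15a libraries lay above all others, while control and activated libraries overlapped. The difference between miR-15a and the control microRNA was 1.01 ± 0.12 on the log2 scale (SE, adjusted p = 0.00114), and the next was 0.56. Rps15a is also the member with the longest annotated 3′ UTR among those with a site for miR-15a, at 4728 bases, with the 2 sites shown above.

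The next largest increases were those of Rpsa, Rpl18 and Rpl12. Rpsa was at 8204 in both miR-15a libraries, against 5766 and 5345 with the control microRNA (0.56 ± 0.06, adjusted p = 0.000429). Rpl18 was at 4546 and 4776 with miR-15a and 3203 and 3168 with the control microRNA (0.55 ± 0.05, adjusted p = 0.000293). Rpl12, at the base of the stalk, was at 4547 and 4665 with miR-15a and 3264 in both control libraries (0.50 ± 0.05, adjusted p = 0.000652). These genes were picked as the largest called increases, so the lack of overlap between the 2 groups in them adds no support.

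The stalk proteins bound to that base were higher as well, with one exception. Rplp1 was at 24099 and 31224 with miR-15a and 20500 and 18666 with the control microRNA (0.49 ± 0.12, adjusted p = 0.0224), a call lost without the miR-15a replicate b (0.30, adjusted p = 0.0667) and without the control replicate b (0.42, adjusted p = 0.0987). Rplp2 was at 5123 and 4899 with miR-15a and 3812 and 3512 with the control microRNA (0.45 ± 0.07, adjusted p = 0.00417). Rplp0 was at 14426 in both miR-15a libraries, against 12562 in both control libraries, and missed the threshold (0.20 ± 0.07, adjusted p = 0.07). Rplp0 was called in this comparison when the quiescent replicate a was left out of the fit (adjusted p = 0.0267) or the quiescent replicate b (adjusted p = 0.0267). Rps6 was at 4665 and 4447 with miR-15a and 3514 and 3448 with the control microRNA (0.39 ± 0.07, adjusted p = 0.00798).

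The 3 members called lower were Rpl28, Rpl22l1 and Rps26. Rpl28, a large-subunit protein that yeast lacks, was at 757 and 628 with miR-15a, 1010 and 1082 in control microRNA libraries, 866 and 902 in activated cells and 346 and 300 in quiescent cells. It was lower with miR-15a than with the control microRNA (-0.60 ± 0.11, adjusted p = 0.00643) and carries 1 of the sites shown above. Rps26 was at 1677 and 1842 with miR-15a and 2076 and 2224 with the control microRNA (-0.29 ± 0.08, adjusted p = 0.0263). The call for Rps26 was lost without the miR-15a replicate a (-0.22, adjusted p = 0.123) and without the control replicate b (-0.24, adjusted p = 0.119). Rps16 had the lowest fitted value but was not called, with 170 and 426 in the miR-15a libraries and 504 and 600 in the control libraries (-1.01 ± 0.40, adjusted p = 0.0954).

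Of the genes with a site for miR-15a that were not called, Rps24 was at 4546 and 4776 with miR-15a and 5123 in both control libraries (-0.14 ± 0.06, adjusted p = 0.145). Rps7 was at 3373 and 3446 with miR-15a and 3203 and 3047 with the control microRNA (0.13 ± 0.08, adjusted p = 0.268). Rpl6 gave a log2 difference of 0.16. The 7 genes with a site thus had positive and negative log2 differences. The partners of the 5S particle had log2 differences of 0.04 for Rpl5 (adjusted p = 0.79) and 0.04 for Rpl11 (adjusted p = 0.622).

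**Figure D4:**
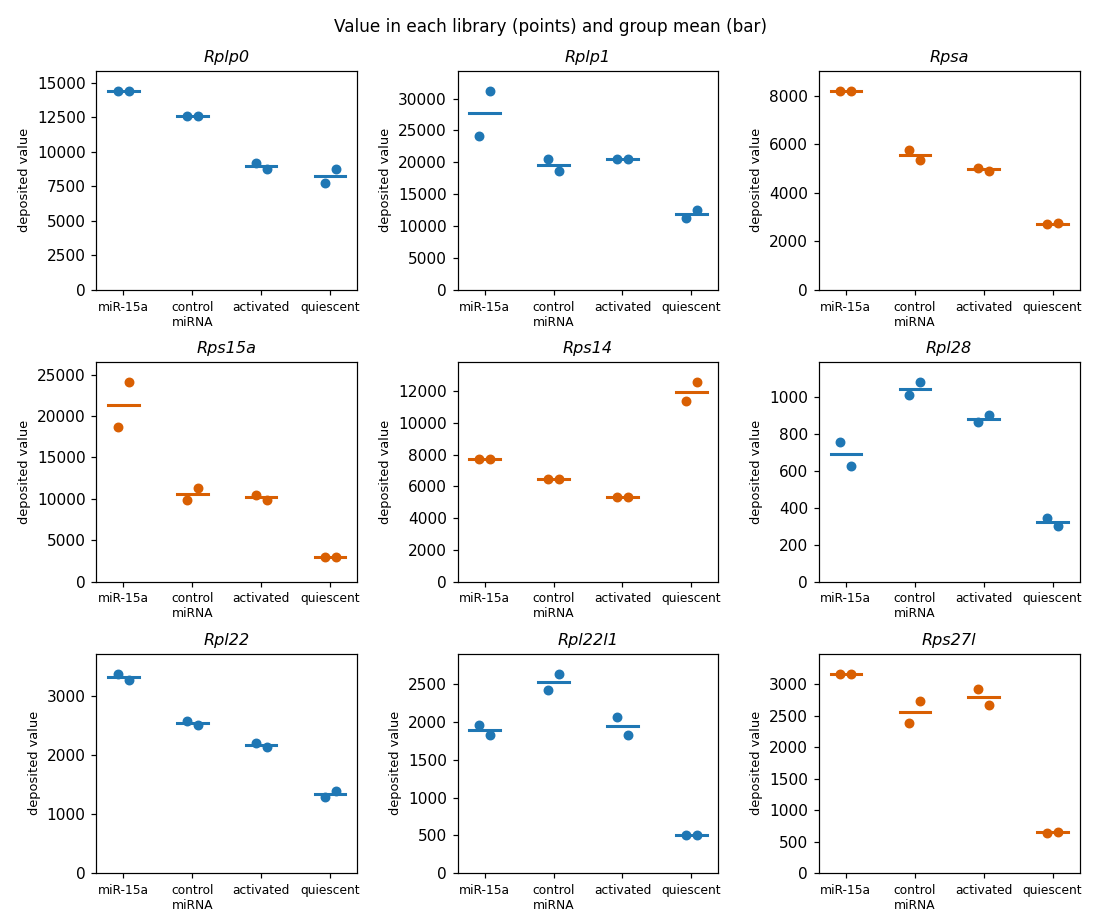
Deposited value of 9 ribosomal protein genes in every library; points are libraries, bars are means of 2, and each vertical axis starts at 0. Rps15a stands at 18666 and 24099 with miR-15a and at or below 11352 elsewhere, Rps14 is highest in quiescent cells, and Rpl22 and Rpl22l1 differ in opposite directions between miR-15a and control libraries.

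Paralogs were read beside their core partners. RPL22 protein is known in mouse to repress its paralog Rpl22l1. Rpl22 was at 3373 and 3263 with miR-15a, 2570 and 2498 in control microRNA libraries, 2204 and 2132 in activated cells and 1282 and 1396 in quiescent cells. Rpl22l1 was at 1960 and 1824 with miR-15a, 2422 and 2640 in control microRNA libraries, 2063 and 1824 in activated cells and 508 and 499 in quiescent cells. With miR-15a Rpl22 was called higher (0.39 ± 0.06, adjusted p = 0.0035) and Rpl22l1 lower (-0.42 ± 0.08, adjusted p = 0.00789) than with the control microRNA. The call for Rpl22l1 was lost without the miR-15a replicate b (-0.37, adjusted p = 0.0501). The value of Rpl22l1 over that of Rpl22 was 0.581 and 0.559 with miR-15a, 0.942 and 1.06 in control microRNA libraries, 0.936 and 0.856 in activated cells and 0.396 and 0.357 in quiescent cells. The miR-15a libraries thus lay between the quiescent libraries and the other activated ones in this ratio, without overlap; with 2 libraries a group the ratio itself was not tested. On activation both rose, Rpl22l1 by 1.94 ± 0.08 (adjusted p = 3.01e-07) and Rpl22 by 0.69 ± 0.06 (adjusted p = 2.11e-05).

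Rps27l, a paralog of Rps27 that p53 is known to induce, was at 3168 in both miR-15a libraries, 2385 and 2732 with the control microRNA, 2922 and 2670 in activated cells and 640 and 655 in quiescent cells. It was called higher in activated than in quiescent cells (2.10 ± 0.08, adjusted p = 1.81e-07). Its difference between miR-15a and the control microRNA was 0.31 ± 0.08 (adjusted p = 0.0224), and the call was lost without the miR-15a replicate a (adjusted p = 0.0816), without the miR-15a replicate b (adjusted p = 0.0847) and without the control replicate a (adjusted p = 0.073). Rpl7l1 was at 1124 and 1215 with miR-15a, 910 and 852 in control microRNA libraries, 885 and 866 in activated cells and 1198 and 1268 in quiescent cells. It was called higher with miR-15a than with the control microRNA (0.41 ± 0.07, adjusted p = 0.00465). Its partner Rpl7 was at 10507 and 11355 with miR-15a and 10507 and 9200 with the control microRNA, which was not called (0.15 ± 0.13, adjusted p = 0.406). Rps4l, named as a paralog of Rps4x but without a protein-coding transcript in GENCODE M21, lay between 52 and 113 in every library. It was not called in any of the 5 comparisons. It was called lower in activated than in quiescent cells without the activated replicate b (-0.77, adjusted p = 0.0221) and higher with miR-15a than in activated cells without that library (0.93, adjusted p = 0.0362).

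Markers of other cell types also differed between the miR-15a and control microRNA libraries. The endothelial markers summed to 13722 to 13777 with miR-15a and 2028 to 2579 with the control microRNA, and 18 of 20 were called higher and 1 lower. The macrophage markers summed to 14555 to 16052 with miR-15a and 2708 to 2964 with the control microRNA, and 19 of 19 were called higher. The hepatocyte markers summed to 1776 to 2492 with miR-15a and 317 to 1647 with the control microRNA, and 2 of 17 were called higher. The stellate cell markers summed to 8966 to 9771 with miR-15a and 12188 to 13102 with the control microRNA, without overlap, and 3 of 13 were called higher and 5 lower. The myofibroblast markers summed to 484839 to 605164 with miR-15a and 520060 to 573061 with the control microRNA, which overlap, and 3 of 12 were called lower. Their part in the ribosomal protein results was not tested.

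The next comparisons use the activated cells as the base, and they share those libraries with the comparison on activation, so their values stand side by side without a measure of likeness. Against activated cells, 45 members were called higher with miR-15a (56.2%) and 1 lower (1.25%), while over all genes 16.8% were called higher and 21.6% lower. The median log2 fold change was 0.25 for the members and -0.10 for all genes. Markers of other cells moved with this comparison: 19 of 20 endothelial markers were called higher, with sums of 13722 to 13777 with miR-15a and 1379 to 1598 in activated cells, and 19 of 19 macrophage markers, with sums of 14555 to 16052 with miR-15a and 2156 to 2376 in activated cells. The hepatocyte markers summed to 1776 to 2492 with miR-15a and 443 to 565 in activated cells, and 3 of 17 were called higher. The stellate cell markers summed to 8966 to 9771 with miR-15a and 13600 to 14350 in activated cells, with 5 of 13 called higher and 4 lower. The myofibroblast markers summed to 484839 to 605164 with miR-15a and 643171 to 652321 in activated cells. The part of these marker differences in the member counts was not tested. Large-subunit genes were called higher in 26 of 47 and small-subunit genes in 19 of 33. The count of 45 fell to 27 without the activated replicate b. With median-ratio scaling the median of all genes moved by 0.14, 57 members were called higher, and over all genes 3113 were called higher and 1644 lower, against 2204 higher and 2841 lower as deposited. The single member called lower, Rpl28, lost its call without the activated replicate a (-0.39, adjusted p = 0.1), the activated replicate b (-0.33, adjusted p = 0.157) or the miR-15a replicate b (-0.22, adjusted p = 0.177), and 2 members were called lower without the miR-15a replicate a and 3 without either control library.

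The control microRNA was then set against activated cells. Of the members, 15 were called higher (18.8%) with the control microRNA, while over all genes 7.18% were called higher. None of the members was called lower by limma, against 6.61% of all genes, and 3 members were lower at an unadjusted p under 0.05. The median log2 fold change was 0.13 for the members and -0.03 for all genes. Of the markers, 4 of 20 endothelial and 1 of 19 macrophage genes were called higher. The endothelial sums were 2028 to 2579 with the control microRNA and 1379 to 1598 in activated cells. The macrophage sums were 2708 to 2964 with the control microRNA and 2156 to 2376 in activated cells. The stellate cell markers summed to 12188 to 13102 with the control microRNA and 13600 to 14350 in activated cells. The myofibroblast markers summed to 520060 to 573061 with the control microRNA and 643171 to 652321 in activated cells. The hepatocyte sums, at 317 to 1647 with the control microRNA and 443 to 565 in activated cells, overlapped. The part of these differences in the member counts was not tested. The count of 15 fell to 8 without the activated replicate a, 4 without the activated replicate b, 9 without the control replicate a and 4 without the control replicate b, and 1 member was called lower without the control replicate a. With median-ratio scaling 30 members were called higher, and over all genes 1371 were called higher and 494 lower, against 944 higher and 869 lower as deposited.

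The largest differences in both comparisons were those of 3 genes that were low in activated cells. Rpl21, Rps2 and Rpl29 shared 20.7%, 63.3% and 45.2% of their windows with other annotated genes, against a median of 41.2%. The other genes numbered 58 for Rpl21, 47 for Rps2 and 36 for Rpl29. Whether reads from those other genes entered the values of Rpl21, Rps2 and Rpl29 was not tested. Rpl29 was at 708 and 461 with miR-15a, 715 and 652 in control microRNA libraries, 179 and 174 in activated cells and 306 and 352 in quiescent cells. Against activated cells this was 1.67 ± 0.18 with miR-15a (adjusted p = 0.000498) and 1.92 ± 0.18 with the control microRNA (adjusted p = 0.00138). Both treated groups lay above both other groups.

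Rps2 was at 6822 and 7720 with miR-15a, 6288 and 6000 in control microRNA libraries, 3512 and 1461 in activated cells and 5764 and 4899 in quiescent cells. Its difference from activated cells was 1.68 ± 0.34 with miR-15a (adjusted p = 0.00823; 1.59 and 0.0523 without the miR-15a replicate b). With the control microRNA it was 1.44 ± 0.34 (adjusted p = 0.0358), with adjusted p of 0.0915 without the control replicate a, 0.129 without the control replicate b, and 0.0635 to 0.0642 without any one of the miR-15a or quiescent libraries. Rpl21 was at 477 and 395 with miR-15a, 495 and 1030 in control microRNA libraries, 204 and 37 in activated cells and 195 and 198 in quiescent cells. Its difference from activated cells was 2.23 ± 0.67 with miR-15a (adjusted p = 0.0347) and 2.94 ± 0.67 with the control microRNA (adjusted p = 0.0318). Without the activated replicate b these became 1.07 (adjusted p = 0.103) and 1.78 (adjusted p = 0.0675). For Rpl21 the calls with miR-15a were also lost without the miR-15a replicate a (adjusted p = 0.135), the miR-15a replicate b (adjusted p = 0.108), the quiescent replicate a (adjusted p = 0.0645) or the quiescent replicate b (adjusted p = 0.0644), and those with the control microRNA without the control replicate b (adjusted p = 0.154) or any one of the miR-15a or quiescent libraries (adjusted p of 0.059 to 0.0608).

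Rps18 and Rps15a followed in size. Rps18, in the head of the small subunit, was at 4086 and 3682 with miR-15a, 3047 and 3168 in control microRNA libraries, 2076 and 1664 in activated cells and 1440 and 1396 in quiescent cells. The difference from activated cells was 0.74 ± 0.10 with the control microRNA (adjusted p = 0.00634) and 1.06 ± 0.10 with miR-15a (adjusted p = 0.000293). Rps15a, at 1.06 ± 0.12 with miR-15a (adjusted p = 0.000649), had a difference of 0.06 with the control microRNA (adjusted p = 0.796). Of the stalk, Rplp0 was called higher than in activated cells with miR-15a (0.69 ± 0.07, adjusted p = 0.000349). It was also called higher in the control libraries (0.49 ± 0.07, adjusted p = 0.00666).

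Set against quiescent cells, the miR-15a libraries had 71 members called higher and 1 lower, with a median of 1.53, while over all genes 37.1% were called higher and 34.4% lower with a median of 0.04. In the same comparison 20 of 20 endothelial, 19 of 19 macrophage and 15 of 17 hepatocyte markers were called lower with miR-15a. Rpl23a, Rps15a, Rpl39 and Rpl17 had the largest differences, at 2.88, 2.83, 2.68 and 2.68. Rps14 was the member called lower, at 7720 in both miR-15a libraries, against 11352 and 12562 in quiescent libraries (-0.63 ± 0.06, adjusted p = 4.87e-05). Rps14 was at 6462 in both control microRNA libraries and 5343 in both activated libraries. Rps14 and Rpl7l1 were the 2 members whose group mean was highest in quiescent cells.

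**Figure D5:**
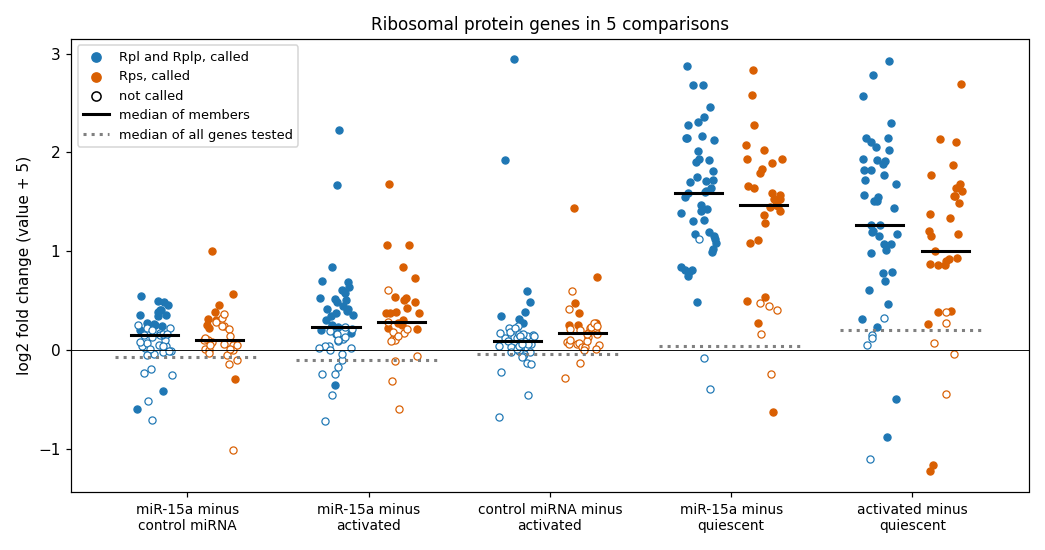
Log2 fold changes of the 80 ribosomal protein genes in 5 comparisons on the log2(value + 5) scale, by subunit; filled points were called, black bars are medians of the members by subunit and dotted lines the median of all 13150 genes. The members sit above the all-gene median by 0.21 for miR-15a minus the control microRNA, 0.34 and 0.16 for the comparisons with activated cells, and 1.49 and 0.99 for those with quiescent cells.

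Genes that work with the ribosome were taken from written lists. The 3 ribosomal proteins that the name rule misses were called higher in activated than in quiescent cells in 3 of 3, as were 45.4% of all genes. Fau, which makes Rps30 fused to a ubiquitin-like protein, averaged 2570 in activated and 1689 in quiescent cells (0.60 ± 0.06, adjusted p = 6.85e-05). Rpl36al, the autosomal copy of Rpl36a, averaged 723 in activated and 181.5 in quiescent cells (1.97 ± 0.09, adjusted p = 5.02e-07).

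Elongation factors and other mRNAs with a TOP motif were called higher in activated than in quiescent cells in 14 of 20 (70%) and lower in 4 (20%), with a median of 1.09, while over all genes 45.4% were called higher and 34.1% lower. Npm1, a nucleolar chaperone of ribosome assembly, averaged 8463 in activated and 1967 in quiescent cells (2.10 ± 0.06, adjusted p = 3.72e-08). Between miR-15a and the control microRNA 2 of these 20 were called higher and 2 lower (10% each), below the 14.4% and 15.4% of all genes. Eef1g, a subunit of the factor that reloads eEF1A, averaged 5029 in miR-15a libraries and 4082.5 in control libraries (0.30 ± 0.05, adjusted p = 0.00463). Eef1a1, the other gene called higher, averaged 91914.5 in miR-15a libraries with an SD of 47689 (n = 2), so these libraries lay far apart. It was at 42350 in both control libraries (1.01 ± 0.30, adjusted p = 0.038). Nap1l1, a histone chaperone whose mRNA has a TOP motif, averaged 2549 in miR-15a libraries and 4169 in control libraries (-0.71 ± 0.05, adjusted p = 7.71e-05).

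Initiation factors were called higher on activation in 15 of 27 (55.6%) and lower in 9 (33.3%), with a median of 0.60, and these shares are near the 45.4% and 34.1% of all genes. Between miR-15a and the control microRNA 3 were called higher (11.1%) and 5 lower (18.5%), near the 14.4% and 15.4% of all genes. Eif4a1, the helicase that unwinds the 5′ end of mRNAs, averaged 7503 in miR-15a libraries and 4845 in control libraries (0.63 ± 0.06, adjusted p = 0.000315). Ribosome biogenesis factors were called higher on activation in 17 of 39 (43.6%) and lower in 7 (17.9%), against 45.4% and 34.1% of all genes, with a median of 0.19 that is close to the 0.21 of all genes. Wdr75, part of the machinery that processes the small-subunit ribosomal RNA, averaged 1065 in activated and 427.5 in quiescent cells (1.31 ± 0.08, adjusted p = 3.53e-06). Ncl, the abundant nucleolar protein nucleolin, averaged 897 in activated and 3602 in quiescent cells (a fitted fold of 0.25, adjusted p = 2.06e-05). Between miR-15a and the control microRNA 8 of the 39 were called higher (20.5%) and 1 lower (2.56%), against 14.4% and 15.4% of all genes.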

How the data were processed

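Total RNA was extracted with TRIzol and sequenced from TruSeq libraries as single-end reads, per the labels' protocols. The submitters' processing notes name STAR, Subread, featureCounts and mm10 as the genome build; versions and settings are not given in the sources used here. The authors deposited one table of 14162 gene symbols whose values, though described as read counts, lie on 910 steps shared by all libraries and were treated as a normalized score. No count model was therefore used. Per the fixed design, limma 3.58.1 in R 4.3.3 was run on log2(value + 5) for genes that reached 10 in at least 2 libraries, with 4 group means over 8 libraries, 4 residual degrees of freedom, a variance prior with trend and Benjamini-Hochberg adjustment over all 13150 tested genes; a call is an adjusted p under 0.05. The procedure was tested on simulated data with normal noise and few changed genes. These lacked the shared steps of the deposited values, so they do not show how ties affect the SE. Fold changes on this scale understate those of low genes. Members, lists and alternatives were chosen with earlier results of these data known. Named were, for each comparison, the 4 largest increases and 4 largest decreases among called members, the stalk proteins, Rpsa, paralogs with partners, Rps6, Rpl5, Rpl11, Rps27a, Rpl13a, Rps19, Rps26, the X-linked members, and up to 3 called genes per related list by smallest p; any other gene was chosen after its values were seen, and some genes are not reported here. Starts and miRNA sequences are from RefSeq (GRCm38.p6), 3′ UTRs, exon lengths and shared windows from GENCODE M21 (GRCm38, the same assembly as mm10). Alternatives covered the pseudocount, filter, scaling, prior, samples in the fit, threshold, a replicate block, each library left out, and, chosen after seeing the data, leaving out members that share sequence or have low values.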

Additional observations from a re-analysis of the deposited data

How the results depend on the processing

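The counts of members called moved with the processing mainly in the smaller comparisons. Higher calls in activated against quiescent cells numbered 66, 38 over the 49 members left without those sharing at least 50% of windows, and 64 to 67 with each library left out; for miR-15a against quiescent cells they numbered 71, 42 and 71 to 73. For miR-15a against activated cells 45 became 27 at an adjusted p under 0.01, 27 without the members that share windows and 27 to 47 with each library left out. For miR-15a against the control microRNA 23 became 11 at that threshold, 15 with only the 2 groups in the fit, 12 without the trend in the prior and 14 to 23 with each library left out. For the control microRNA against activated cells 15 of 80 became 3 at that threshold, 30 with median-ratio scaling, 3 with only the 2 groups and 5 without the trend. Of the 49 members left without those sharing at least 50% of windows, 9 were called higher. The count of 15 also moved with single libraries left out. Lower calls in activated against quiescent cells numbered 4, 7 with median-ratio scaling and 3 to 5 with each library left out, and for miR-15a against quiescent cells 1, and 2 with that scaling. For miR-15a against activated cells the 1 lower call became 0 at the stricter threshold, 0 with median-ratio scaling, 0 with only the 2 groups, 2 with a pseudocount of 20 and 0 to 3 with each library left out. For miR-15a against the control microRNA 3 became 1 with only the 2 groups and 2 to 4 with each library left out, and for the control microRNA against activated cells 0 became 0 to 1. The cause of these moves was not tested, apart from the settings that by construction test fewer members, fewer samples or a stricter threshold. Of 2389 values of single genes under the alternatives 2219 kept their direction and side of the threshold, 136 lost a call and 33 gained one, and 1 turned: Rpl13a in activated against quiescent cells, at -0.23 with median-ratio scaling.

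With the replicate letter as a replicate block 66 members were called higher in activated than in quiescent cells, 21 with miR-15a than with the control microRNA, 41 with miR-15a than in activated cells, 11 with the control microRNA than in activated cells and 72 with miR-15a than in quiescent cells; it changed no count of members by over 1.5 times. Differences between the letters correlated between groups at -0.067 to 0.087 over genes. With 1 such difference per group, this cannot show whether libraries with the same letter shared an animal, culture or batch. The 2 libraries a group set the precision, and a group left with 1 library was assumed to vary like the others.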

Other observations

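RNA polymerase I makes the large ribosomal RNAs and RNA polymerase III the 5S RNA and tRNAs. Of 29 genes of these machineries 15 were called higher and 6 lower in activated than in quiescent cells, with a median log2 fold change of 0.32. The share called higher (51.7%) is near the 45.4% of all genes, and the share called lower was 20.7%, against 34.1% of all genes. Maf1, the repressor of polymerase III, averaged 286.5 in activated and 636 in quiescent cells (-1.14 ± 0.08, adjusted p = 6.01e-06). Maf1 averaged 519 in miR-15a libraries and 319 in control microRNA libraries (0.70 ± 0.08, adjusted p = 0.000849), and in that comparison 1 of the 29 genes was called higher (3.45%) and 2 lower (6.9%), against 14.4% and 15.4% of all genes.

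Regulators of ribosome supply around mTORC1 and MYC were called lower on activation in 13 of 19 (68.4%) and higher in 3 (15.8%), with a median of -0.46, while over all genes 34.1% were called lower and 45.4% higher. Rheb, the activator of mTORC1, averaged 2178 in activated and 672 in quiescent cells (1.69 ± 0.05, adjusted p = 7.42e-08). Eif4ebp1, also on this list, averaged 1632 in activated and 788.5 in quiescent cells (1.04 ± 0.07, adjusted p = 3.85e-06). Mxd1, an antagonist of MYC, averaged 30.5 in activated and 709.5 in quiescent cells (-4.33 ± 0.31, adjusted p = 6.38e-06). The list holds activators and antagonists alike, so its counts of calls give no single direction of activity. Between miR-15a and the control microRNA 3 of the 19 were called higher (15.8%) and 5 lower (26.3%), against 14.4% and 15.4% of all genes. Mdm2, which Rpl5 and Rpl11 bind, averaged 2444 in miR-15a libraries and 1818.5 in control libraries (0.43 ± 0.07, adjusted p = 0.00348). Mtor itself averaged 400.5 in miR-15a libraries and 547 in control libraries (-0.44 ± 0.10, adjusted p = 0.0141).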
